A study of Mus musculus with 6 samples.

Results

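DNA damage repair and checkpoint genes are described here in mouse liver: 30 genes of homologous recombination, the Fanconi pathway, mismatch and excision repair, and the checkpoint kinases. They were chosen by symbol, each matched 1 Ensembl identifier, and together they are 30 of the 55802 rows of the deposited count table. The 6 liver libraries come from wild-type C57BL/6 mice, 3 given CCl4 (carbon tetrachloride, a liver toxin that is activated by hepatocyte cytochrome P450 enzymes) and 3 given oil, in a study of CCl4-driven liver fibrosis. All libraries share the strain, genotype and tissue. Age, sex, dose, duration and the time of sampling are not given in the labels, nor is it said that the libraries of a group come from separate animals, so p-values measure the spread between libraries, which may in part be technical.

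Double-strand breaks are repaired either by joining the ends or by homologous recombination, in which BRCA1, BRCA2 and their partners act on resected DNA so that the sister chromatid can serve as template. The Fanconi proteins unhook crosslinks between strands, and the kinases ATM and ATR, with CHEK2 and CHEK1 below them, halt the cell cycle while damage persists. Recombination genes are known to be expressed mainly in S and G2 phase, whereas the adult liver is largely quiescent until injury makes hepatocytes divide.

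Library totals ran from 18929972 to 20042731 counts. Summed levels of 10 hepatocyte markers lay between 100636 and 109507 CPM (counts per 1000000 on TMM-scaled library sizes) in all 6 libraries. CCl4 replicate 3 stood apart from CCl4 replicates 1 and 2 on the second principal component of log2 CPM, which held 8.68% of the variance. It also held less mitotic RNA. The sum over 22 mitotic genes was 380, 416 and 205 CPM in CCl4 replicates 1, 2 and 3, against 28.1 to 39.0 in controls. For that reason results are given with and without this library where it matters. In bulk tissue, fewer cells of a type and less RNA per cell cannot be told apart.

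Of the 30 genes, 17 were called higher in CCl4 livers and 1, Atm, lower, at an adjusted p under 0.05 in edgeR's quasi-likelihood test with Benjamini-Hochberg adjustment over all 15579 genes tested. Among all genes tested, 41.3% were called in either direction, 21.2% higher and 20.1% lower. A further 10 members were tested without a call, and Rmi2 and Eme1 fell below the count filter. Of the 28 that passed the filter, 10 did so only through the CCl4 libraries, because fewer than 3 controls reached the required count; such genes had to differ in order to be tested, so the count is a description. A log2 fold change of at least 1 was reached by 15 of the called members (10.1% of all genes tested). In 20 of the 30 genes every CCl4 library lay above every control, and in 1 below (27.6% and 26.4% of all genes tested). Without CCl4 replicate 3, the calls were 20 higher and 1 lower.

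The genes called higher were mostly scarce in control liver. The count filter in part fixes this contrast, as a gene this scarce that did not rise would not have been tested. Bard1, Rad51ap1, Rad54l, Exo1, Fancd2, Fanci, Chek1, Clspn, Neil3 and Polq, all called higher, passed the filter only through the CCl4 libraries. Controls held a mean of 0.231 to 2.57 CPM for the 17 called higher and 1.25 to 46.5 CPM for the 10 not called. Per kilobase of exon, the control levels were 0.0275 to 0.855 CPM, with a median of 0.0926, for the genes called higher. For those not called they were 0.170 to 8.78, with a median of 0.732. On this length-scaled level Parp1, Msh6, Xrcc3 and Xrcc1, none of them called, stood at the top, at 8.78, 4.32, 2.66 and 2.04 CPM per kilobase in controls. In CCl4 livers the same 4 genes led at 9.26, 3.97, 2.51 and 2.02 CPM per kilobase, and Chek2 followed at 1.44.

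**Figure D1:**
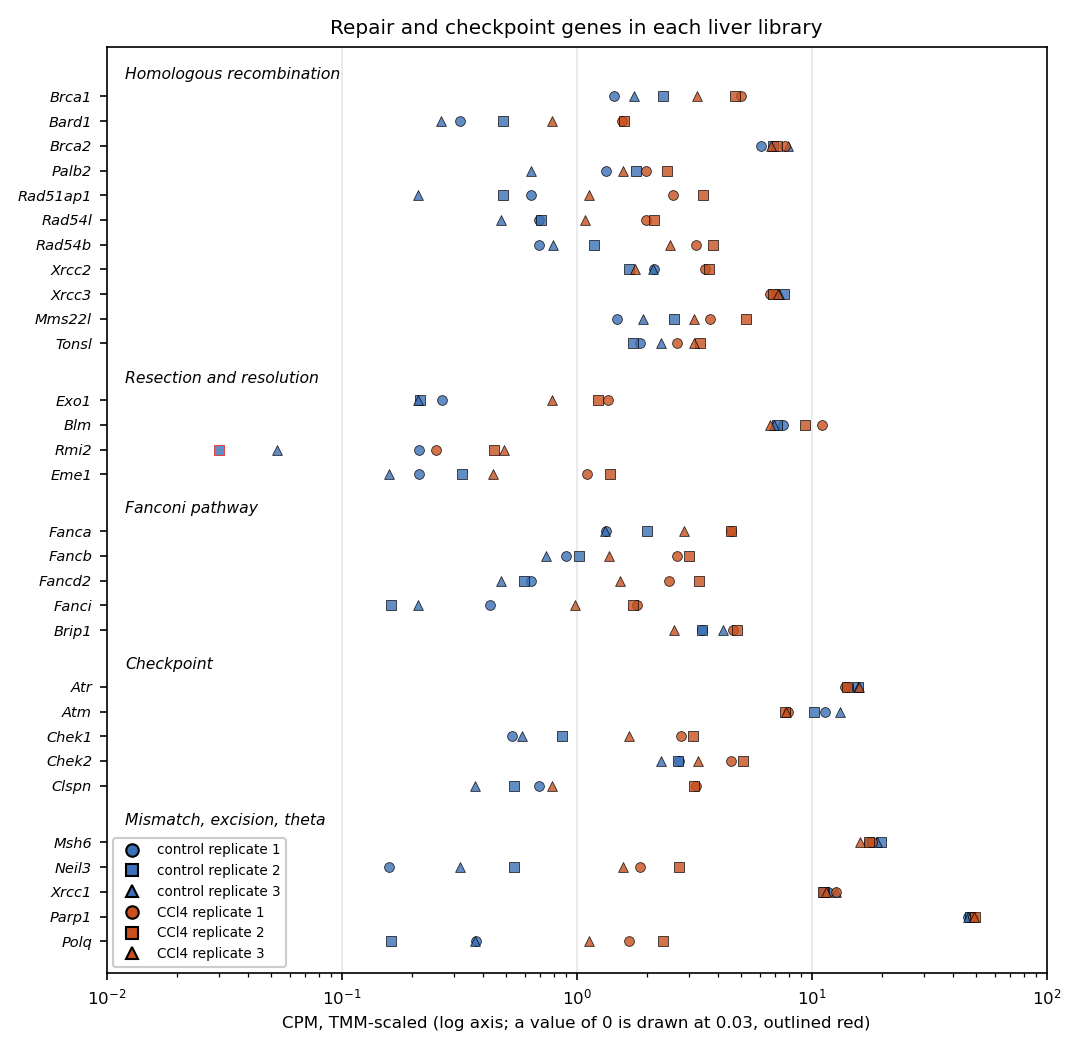
CPM of the 30 repair and checkpoint genes on a log axis, 1 point per library (blue control, orange CCl4, shape for replicate), grouped by role. Neil3, Polq, Exo1 and the Fanconi genes Fancd2 and Fanci lie clear of the controls in all 3 CCl4 libraries, whereas the groups overlap for Msh6, Xrcc1, Atr and Brca2; the count of 0 for Rmi2 in control replicate 2 is drawn at the lower edge, outlined in red.

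Promoter sequences were examined because many members rose together. RefSeq promoter windows (GRCm38.p6, 250 bases before to 50 after the transcription start) were found for 24 of the 30 genes. The 4 genes called higher with the smallest adjusted p and a window, Neil3, Polq, Chek1 and Fanci, are shown first. Rad51ap1 and Clspn are added as genes called higher with an E2F match, Msh6 as a gene without a call that holds one, and Atm as the gene called lower. These additions were chosen after their values were seen. Each stretch runs from 120 bases before the start to the first 30 bases of the transcript, 5′ to 3′ on the gene's strand. Capitals mark matches, on either strand, to E2F motifs (TTTCGCGC, TTTGGCGC, GGCGGGAA), the cell cycle homology region (TTTGAA) and CCAAT; the stretches of Neil3, Chek1, Fanci and Atm hold none. The motifs and the length of the stretch were chosen after the files had been read.
Neil3, chr8:53639036-53639185, minus strand: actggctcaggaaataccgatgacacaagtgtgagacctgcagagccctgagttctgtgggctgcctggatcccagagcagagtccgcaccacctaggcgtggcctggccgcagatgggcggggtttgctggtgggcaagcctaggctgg
Polq, chr16:37011666-37011815, plus strand: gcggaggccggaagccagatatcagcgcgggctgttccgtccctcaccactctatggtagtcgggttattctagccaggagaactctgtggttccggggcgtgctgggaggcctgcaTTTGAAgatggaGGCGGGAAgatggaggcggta
Chek1, chr9:36726629-36726778, minus strand: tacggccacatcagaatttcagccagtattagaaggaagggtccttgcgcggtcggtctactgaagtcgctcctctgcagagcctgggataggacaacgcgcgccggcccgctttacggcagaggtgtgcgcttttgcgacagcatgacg
Fanci, chr7:79392218-79392367, plus strand: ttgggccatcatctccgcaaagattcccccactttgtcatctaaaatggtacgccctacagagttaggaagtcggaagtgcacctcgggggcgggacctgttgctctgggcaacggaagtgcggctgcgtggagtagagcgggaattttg
Rad51ap1, chr6:126939558-126939707, minus strand: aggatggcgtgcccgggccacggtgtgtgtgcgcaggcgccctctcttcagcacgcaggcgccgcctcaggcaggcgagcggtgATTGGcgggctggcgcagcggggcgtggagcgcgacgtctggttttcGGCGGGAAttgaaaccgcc
Clspn, chr4:126556860-126557009, plus strand: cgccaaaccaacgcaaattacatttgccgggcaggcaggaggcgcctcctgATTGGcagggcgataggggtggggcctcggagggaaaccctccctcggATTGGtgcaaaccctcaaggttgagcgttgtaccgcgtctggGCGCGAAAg
Msh6, chr17:87974930-87975079, plus strand: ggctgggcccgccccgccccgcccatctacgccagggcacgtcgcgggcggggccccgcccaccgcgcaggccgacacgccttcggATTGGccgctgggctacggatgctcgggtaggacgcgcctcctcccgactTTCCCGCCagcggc
Atm, chr9:53536642-53536791, minus strand: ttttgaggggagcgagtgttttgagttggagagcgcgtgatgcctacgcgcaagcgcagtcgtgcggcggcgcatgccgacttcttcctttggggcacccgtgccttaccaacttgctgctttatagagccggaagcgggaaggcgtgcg

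An E2F match was present in 7 of 24 members (29.2%), against 2.96% of all 32851 windows and 4.97% of the 13975 windows of genes tested here. The 7 were Chek1, Clspn, Fancb, Mms22l, Polq, Rad51ap1 and Msh6. They made up 6 of the 13 genes with a window that were called higher and 1 of the other 11. The match of Polq began at base 10 of the transcript, that of Rad51ap1 at 12, that of Msh6 at 17 and that of Clspn at 22. That of Mms22l began at -4, that of Fancb at -173 and that of Chek1 at 43, outside the printed stretch. CCAAT was found in 14 of 24 members (58.3%), against 37.4% of all windows and 37.5% of those of genes tested. It was found in 7 of 13 genes called higher and 7 of the other 11. TTTGAA was found in 3 of 24 (12.5%), against 17.9% of all windows and 12.7% of those of genes tested. A palindromic NRF1 motif was found in 0 of 24, against 0.971% and 1.87%. The GC box GGGCGG, which can overlap GGCGGGAA, was found in 15 of 24 (62.5%), against 35.7% of all windows and 58.4% of those of genes tested. Members were counted as genes with a match in any of their windows, whereas the other shares count single windows, so the units differ. A match of letters does not show that a factor binds, and the difference in shares was not tested.

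Of 11 genes of strand invasion and its mediators, 7 were called higher and 0 lower (21.2% and 20.1% of all genes tested). Among these, Bard1, Rad51ap1 and Rad54l passed the filter only through the CCl4 libraries. Brca1 (ENSMUSG00000017146), a ubiquitin ligase subunit that promotes resection, stood at 1.44, 2.32 and 1.75 CPM in controls 1 to 3. In CCl4 replicates 1 to 3 it stood at 4.99, 4.70 and 3.24 CPM. The groups did not overlap, and Brca1 rose 2.34-fold (log2 fold change 1.23, adjusted p = 0.00270, SE 0.24). Its obligate partner Bard1 rose from 0.357 ± 0.115 (mean ± SD, n = 3) to 1.31 ± 0.454 CPM, a log2 fold change of 1.86 (adjusted p = 0.00437, SE 0.39). Brca2, a mediator of strand invasion, stood at 6.07, 6.86 and 7.95 CPM in controls and at 7.71, 7.12 and 6.68 in CCl4 livers. The groups overlapped, and the log2 fold change of 0.04 had a 95% interval of -0.25 to 0.34 (adjusted p = 0.821). Palb2, which joins BRCA1 to BRCA2, was not called at 0.67 (95% interval -0.10 to 1.44, adjusted p = 0.148).

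Rad51ap1, which stimulates strand invasion, stood at 0.639, 0.486 and 0.212 CPM in controls and 2.57, 3.46 and 1.13 in CCl4 livers. CCl4 replicate 3 was the lowest of the 3, still above every control, and the log2 fold change was 2.41 (adjusted p = 0.00566, SE 0.51). The DNA translocases Rad54l and Rad54b rose by 1.46 (adjusted p = 0.00670, SE 0.33) and 1.83 (adjusted p = 6.09e-04, SE 0.27) on the log2 scale. In the GENCODE M21 annotation Rad54b shares 35.8% of its exon bases with Fsbp on the same strand, itself called higher at 1.89 (adjusted p = 0.0107), so their reads may be split between the genes. Rad54l shares 15.4% of its exon bases with Lrrc41 on the opposite strand, which stood at 17.1 CPM in both groups.

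Mms22l and Tonsl encode a complex that promotes recombination at stalled forks. Mms22l went up from 2.00 ± 0.557 to 4.02 ± 1.09 CPM (a log2 change of 1.01, adjusted p = 0.0118, SE 0.26) and Tonsl from 1.96 ± 0.287 to 3.06 ± 0.354 (0.64, adjusted p = 0.0245, SE 0.19). Mms22l lost its call without control replicate 1 (adjusted p = 0.0538) or CCl4 replicate 2 (0.0516), and Tonsl lost it in DESeq2 (0.0752) and without CCl4 replicate 2 (0.0874) or either of control replicates 1 (0.0768) and 2 (0.0786). Xrcc2 and Xrcc3, which assist strand invasion, were not called. Xrcc2 stood at 2.13, 1.68 and 2.12 CPM in controls and at 3.53, 3.66 and 1.77 in CCl4 livers (adjusted p = 0.122). Only CCl4 replicate 3 lay among the controls, and without it Xrcc2 was called higher at 0.86 (adjusted p = 0.00459). Xrcc3 kept between 6.65 and 7.62 CPM in all 6 libraries (adjusted p = 0.551).

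Among the 4 genes of end resection, dissolution and resolution, Exo1 was called. Exo1, an exonuclease of resection and mismatch repair, stood at 0.266, 0.216 and 0.212 CPM in controls and 1.36, 1.24 and 0.786 in CCl4 livers. All CCl4 libraries lay above the controls, with a log2 fold change of 2.25 (adjusted p = 0.00110, SE 0.37). Blm, the helicase mutated in Bloom syndrome, stood at 7.56, 7.13 and 6.89 CPM against 11.1, 9.40 and 6.63. CCl4 replicate 3 again lay at the control level, and Blm was called only without it (0.51, adjusted p = 0.00689) or with library size alone (0.47, adjusted p = 0.0438). Eme1, a subunit of the MUS81 nuclease, had 4, 6 and 3 counts in controls and 22, 28 and 9 in CCl4 livers. Rmi2, a subunit of the BLM complex, had 4, 0 and 1 counts against 5, 9 and 10. Both lay below the filter. With no filter on low counts both were called higher.

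Of 5 Fanconi genes, 4 were called higher, against 21.2% of all genes tested. Among these, Fancd2 and Fanci passed the filter only through the CCl4 libraries. Fancd2 and Fanci form the heterodimer whose ubiquitination is the central step of the pathway. Fancd2 stood at 0.639, 0.594 and 0.477 CPM in controls and 2.47, 3.31 and 1.52 in CCl4 livers, and Fanci at 0.426, 0.162 and 0.212 against 1.81, 1.73 and 0.983. The groups were apart for both, with log2 fold changes of 2.08 (adjusted p = 0.00112, SE 0.34) and 2.47 (adjusted p = 0.00129, SE 0.42). Fanca and Fancb, subunits of the core complex that attaches ubiquitin to them, rose by 1.36 (adjusted p = 0.00233, SE 0.25) and 1.40 (adjusted p = 0.00748, SE 0.33) on the log2 scale. Fanci shares 15.95% of its exon bases with Polg on the opposite strand, and Polg was lower in CCl4 livers, at -0.28 (adjusted p = 0.00201). Fanca shares 10.5% with Zfp276, which was not called (-0.13, adjusted p = 0.222). Brip1, a helicase that binds BRCA1, stood at 3.41, 3.40 and 4.19 CPM against 4.64, 4.80 and 2.60, so that CCl4 replicate 3 fell below the controls and replicates 1 and 2 above them (adjusted p = 0.691).

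The checkpoint genes moved in different directions. Atm, the kinase that answers double-strand breaks, stood at 11.4, 10.2 and 13.2 CPM in controls and 7.91, 7.67 and 7.81 in CCl4 livers. The CCl4 libraries lay close together below every control, and Atm fell by 0.58 on the log2 scale (adjusted p = 0.00309, SE 0.11). That call was lost only at a minimum fold change of 1.5 among 15 alternatives. Atr, the kinase that answers stalled forks, stood at 14.3, 15.7 and 15.7 CPM against 13.8, 14.1 and 15.8, with a 95% interval of the log2 fold change of -0.26 to 0.13 (adjusted p = 0.593). Chek1, the kinase activated by ATR, rose from 0.532, 0.865 and 0.583 to 2.77, 3.12 and 1.67 CPM (log2 fold change 1.92, adjusted p = 0.00121, SE 0.32). Chek2, the kinase activated by ATM, rose from 2.57 ± 0.248 to 4.31 ± 0.923 CPM (0.75, adjusted p = 0.0139, SE 0.20). The call of Chek2 was lost without control replicate 3 (adjusted p = 0.0564) or CCl4 replicate 2 (0.0611).

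Clspn encodes claspin, the mediator through which ATR reaches CHEK1. It stood at 0.692, 0.540 and 0.371 CPM in controls and at 3.23, 3.17 and 0.786 in CCl4 livers. CCl4 replicate 3 barely exceeded the highest control, and the gene was called at a log2 fold change of 2.15 (adjusted p = 0.0202, SE 0.57). The call was lost in 7 of 15 alternatives. Among them were limma-voom (adjusted p = 0.0999), no filter on low counts (0.0629), and leaving out any one of control replicates 2 (0.0657) and 3 (0.0769) and CCl4 replicates 1 (0.0541) and 2 (0.0573).

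Of the 5 genes of mismatch repair, base excision, single-strand break repair and theta-mediated joining, 2 were called higher (21.2% of all genes tested). These were Neil3 and Polq, which passed the filter only through the CCl4 libraries. Neil3, a glycosylase that also unhooks crosslinks at forks, had the largest log2 fold change of the members tested. It stood at 0.160, 0.540 and 0.318 CPM in controls and 1.86, 2.72 and 1.57 in CCl4 livers, a rise of 2.58 on the log2 scale (adjusted p = 8.00e-04, SE 0.40). Polq, the polymerase of theta-mediated end joining, rose from 0.373, 0.162 and 0.371 to 1.66, 2.32 and 1.13 CPM (2.47, adjusted p = 0.00113, SE 0.41). The groups were apart in both genes. Msh6, the mismatch recognition subunit, stood at 18.8 ± 1.15 and 17.3 ± 1.03 CPM (adjusted p = 0.282). Xrcc1, the scaffold of single-strand break repair, stood at 11.9 ± 0.758 and 11.8 ± 0.787 (adjusted p = 0.919). Parp1, the sensor of strand breaks, ran from 46.1 to 47.0 CPM in controls and from 48.6 to 49.4 in CCl4 livers. The groups did not overlap, yet the log2 fold change was 0.08 (95% interval -0.04 to 0.19, adjusted p = 0.254). Parp1 was called higher under upper quartile scaling (0.16, adjusted p = 0.0274) and with library size alone (0.22, adjusted p = 0.00822).

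**Figure D2:**
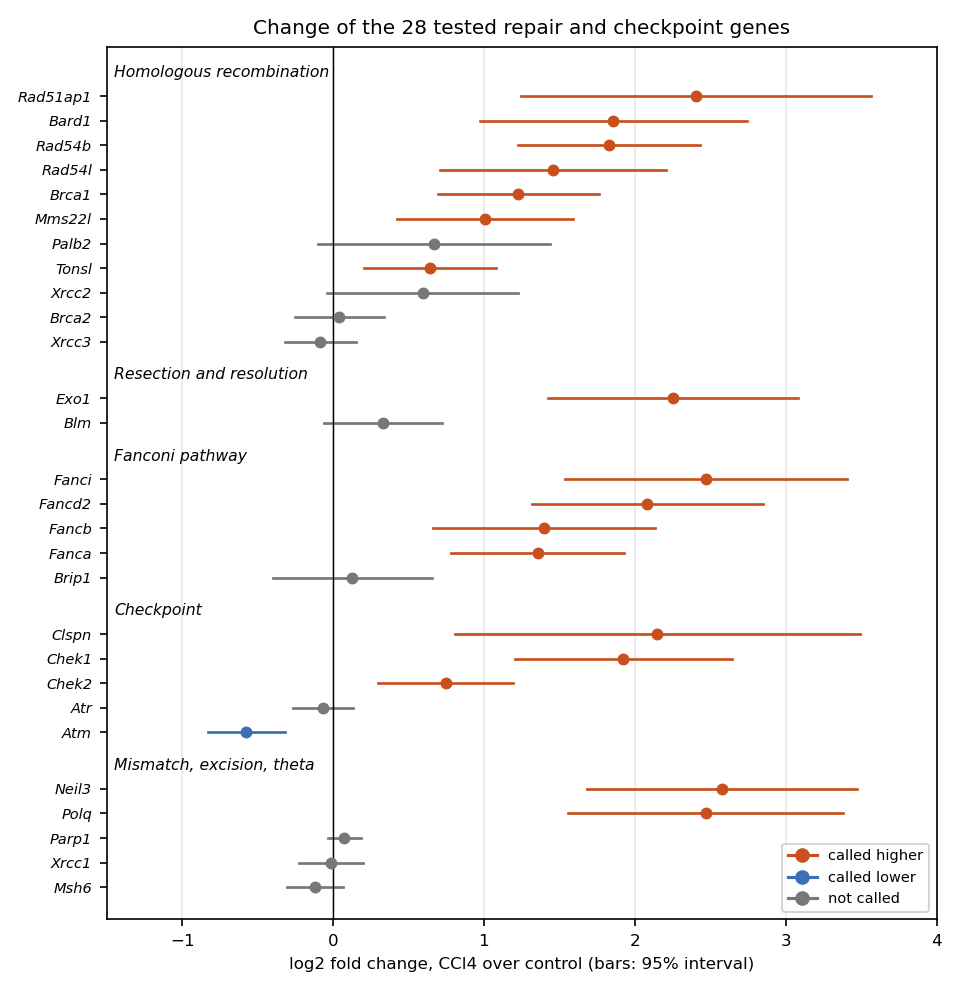
Log2 fold change of CCl4 over control for the 28 tested genes, with 95% intervals from edgeR's quasi-likelihood test, grouped by role and coloured by call. The intervals of the scarce genes are wide, that of Clspn running from 0.81 to 3.49, while that of Parp1 runs from -0.04 to 0.19; Atm alone lies wholly below 0.

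CCl4 replicate 3 was the lowest CCl4 library for 16 of the 17 genes called higher (94.1%), Tonsl being the exception. Among all 3303 genes called higher it was the lowest for 36.8%. The ratio of its CPM to the mean of CCl4 replicates 1 and 2 had a median of 0.567 over the 17 genes, from 0.246 for Clspn to 1.04 for Tonsl. Over the 10 genes not called the median ratio was 0.902, and the lowest value, 0.492, was that of Xrcc2. Replication fork genes had a median ratio of 0.774 and mitotic genes one of 0.517. Set against the control mean, Clspn stood at 2.58 on the log2 scale in CCl4 replicates 1 and 2 together and at 0.56 in replicate 3. The corresponding values were 2.76 and 1.34 for Rad51ap1, 2.16 and 1.34 for Chek1, and 2.76 and 2.21 for Neil3.

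**Figure D3:**
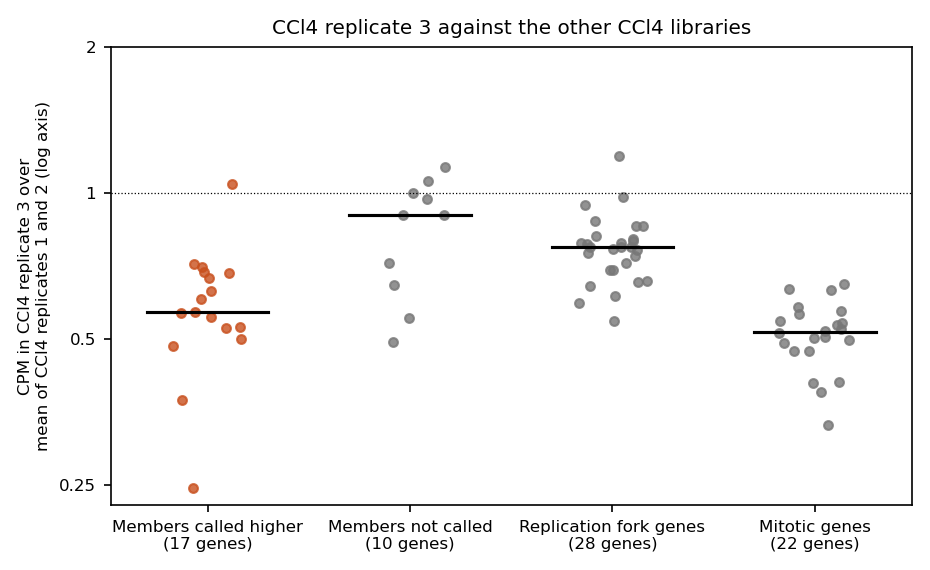
Ratio of CPM in CCl4 replicate 3 to the mean of CCl4 replicates 1 and 2, on a log axis, 1 point per gene, with black lines at the medians. The 17 members called higher centre on 0.567, between the mitotic genes at 0.517 and the replication fork genes at 0.774, and the members not called centre on 0.902.

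Markers of proliferation and of other cell types moved with the treatment too. All 22 mitotic genes and 18 of 28 replication fork genes were called higher, and Mcm10 was called lower. Mki67 rose 11.8-fold (log2 fold change 3.57), Top2a by 2.70, Mcm5 by 1.57 and Pcna by 0.33 on the log2 scale. The sum of 10 macrophage and monocyte markers was 165 to 213 CPM in controls and 616 to 695 in CCl4 livers, and all 10 were called higher. The sum of 10 stellate cell and fibroblast markers went from 323 to 388 CPM up to 1160 to 1267, with 8 called higher. That of 10 cholangiocyte markers went from 80.8 to 125 CPM up to 285 to 379, with 5 higher. That of 8 neutrophil markers went from 6.997 to 10.8 CPM up to 29.4 to 32.8, with 5 higher and Ly6g at 0 in every control. Sums of T, B and NK cell markers (12.9 to 15.0 against 13.9 to 16.1 CPM) and of endothelial markers (415 to 431 against 379 to 416 CPM) overlapped; 1 T, B and NK cell marker was called higher and 2 endothelial markers lower. For 7 erythroid markers the sums were 149 to 217 and 207 to 226 CPM, with 2 higher and 1 lower, and of 10 hepatocyte markers 1 was higher and 4 lower. No marker of these lists was at 0 in all 6 libraries. Macrophage, stellate cell and cholangiocyte sums were not lower in CCl4 replicate 3, at 1.09, 1.09 and 1.24 times the mean of replicates 1 and 2. Sums of T, B and NK cell, endothelial and erythroid markers stood at 1.01, 1.01 and 1.04 times that mean. Neutrophil and hepatocyte sums were lower, at 0.936 and 0.959 times. The part of any of these cell populations in the rise of the repair genes was not tested.

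Ratios between partner genes within a library do not depend on library scaling. For 17 pairs chosen by shared complex, family or signalling order, the log2 ratio of counts plus 0.5 was compared between groups with a two-sided exact permutation test, which cannot go below p = 0.10 with 3 libraries against 3. In 8 pairs the groups did not overlap, each at an exact permutation p = 0.10 (0.213 after Benjamini-Hochberg adjustment over the 17), so none passes 0.05. Groups were also apart for many single genes, 27.6% of all genes tested higher and 26.4% lower. The share over other gene pairs was not computed, so the count of pairs is a description. Chek1 to Chek2 stood at -2.29, -1.61 and -1.92 in controls and -0.71, -0.70 and -0.97 in CCl4 livers, a shift of 2.22 times toward Chek1. Chek1 gained 3.83 times on Atr, its upstream kinase. Atr gained 1.41 times on Atm, from log2 ratios of 0.32, 0.62 and 0.25 to 0.80, 0.88 and 1.02. Neil3 gained 6.84 times on its paralog Neil1, and Eme1 3.17 times on its partner Mus81. Neil3 had 3, 10 and 6 counts in controls and Eme1 4, 6 and 3, so both ratios are imprecise. Eme1 counts may also hold reads of the overlapping gene Lrrc59.

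Brca1 lost 1.47 times on Bard1, with log2 ratios of 2.08, 2.20 and 2.61 in controls and 1.66, 1.56 and 2.01 in CCl4 livers. Parp1 lost 1.33 times on Parp2, which rose by 0.49 on the log2 scale (adjusted p = 0.00358, SE 0.10), and Xrcc1 gained 1.26 times on its ligase partner Lig3, which fell by 0.35 (adjusted p = 0.00657, SE 0.08). Fancd2 to Fanci, Mms22l to Tonsl, Rad54l to Rad54b, Brca2 to Palb2, Xrcc2 to Xrcc3 and Clspn to Timeless had overlapping groups (exact permutation p = 0.20 to 0.30). So had Blm to Rmi2, where Rmi2 had too few counts for a stable ratio (exact permutation p = 0.20).

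**Figure D4:**
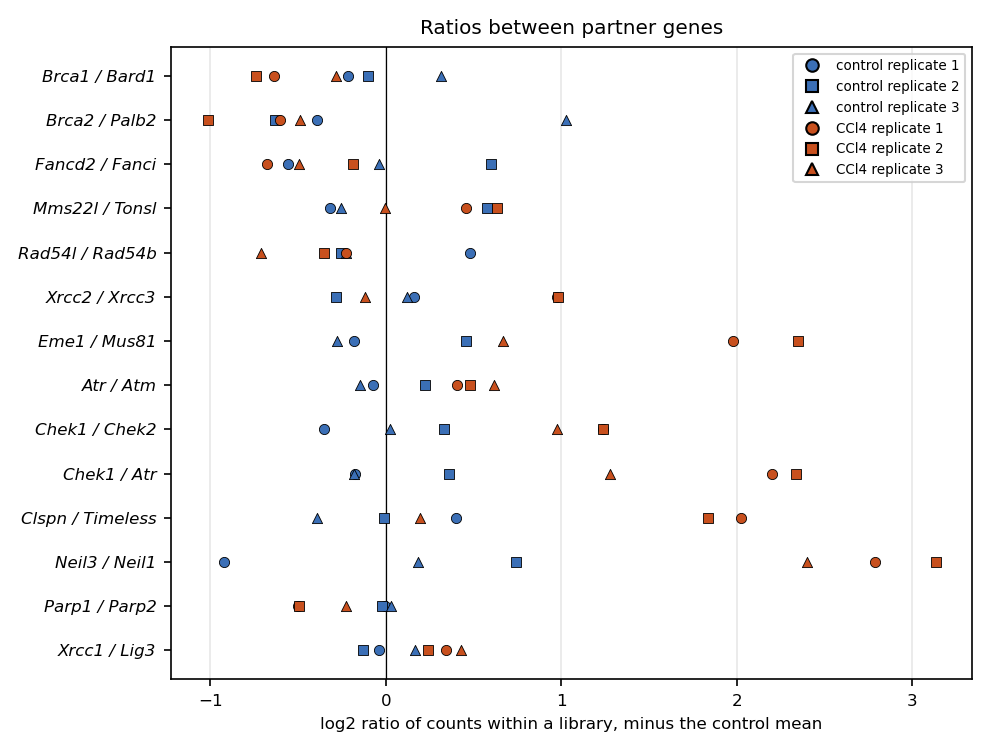
Log2 ratio of counts between partner genes in each library, minus the mean of the controls, for 14 pairs (Blm to Rmi2, with a count of 0 in a control, is left out). Chek1 to Chek2, Chek1 to Atr, Neil3 to Neil1 and Eme1 to Mus81 lie to the right of every control in all CCl4 libraries, and Atr to Atm does so with a smaller shift.

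The other repair and checkpoint genes were taken from lists of 143 genes that are no members. Of 141 tested, 25 were called higher and 24 lower (17.7% higher, against 21.2% of all genes tested), and their median log2 fold change was -0.03, against 0.00056 over all genes tested. The split depended on scaling, with 32 higher and 12 lower under upper quartile scaling and 40 and 7 with library size alone. In homologous recombination, 8 of 35 rose (22.9%, near the share of all genes tested) and 7 fell. Nbn, the subunit of the MRN complex that recruits ATM to breaks, fell from 20.7 ± 0.861 to 14.7 ± 1.11 CPM (-0.49, adjusted p = 0.00137, SE 0.08). The MRN subunit Rad50 fell as well (-0.34), as did the helicase gene Wrn (-0.28). Mre11, the remaining MRN subunit, was not called (0.0013, adjusted p = 0.994). Genes called higher in this list included Fignl1 (2.48), Gen1 (1.25) and Swsap1 (0.55).

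Fanconi and checkpoint lists held no gene called lower. Of 14 other Fanconi genes tested, 4 rose (28.6%, against 21.2% of all genes tested). They were led by the E2 enzyme Ube2t, which ubiquitinates FANCD2 (1.45, adjusted p = 0.00544, SE 0.32). Of 22 checkpoint genes, 9 rose (40.9%). The phosphatase Cdc25c, which starts mitosis and is held back by CHEK1, rose from 0.124 ± 0.122 to 2.87 ± 1.05 CPM (4.46, adjusted p = 2.41e-04, SE 0.54). Timeless, a fork protection partner of claspin, rose by 0.55 (adjusted p = 0.00451, SE 0.12) and the damage-marking histone gene H2ax by 0.83. Trp53 itself stood at 23.8 ± 2.19 and 23.7 ± 3.27 CPM (adjusted p = 0.972).

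Of 21 nucleotide excision repair genes, 0 were called higher and 9 lower, with a median of -0.20. Among all genes tested, 21.2% were called higher and 20.1% lower. With library size alone, all lists of other repair genes together held 7 genes called lower, so not all 9 falls kept their call. Xpa, which verifies the lesion, had the largest of these falls, at 0.50 on the log2 scale, from 6.71 ± 0.299 to 4.74 ± 0.847 CPM (adjusted p = 0.0245, SE 0.15). Of 20 base excision and single-strand break genes tested, 4 rose (20%, near the share of all genes tested) and 3 fell. Lig1, the replicative ligase, rose by 1.27 (adjusted p = 6.30e-04, SE 0.19). Of 6 other mismatch repair genes, 0 rose and Pms1 (-0.51) and Msh3 (-0.49) fell. Of 10 end joining genes, Dclre1c, which encodes the nuclease Artemis, fell (-0.42, adjusted p = 0.00430, SE 0.09) and none rose. Of 13 genes of translesion synthesis and direct reversal, Shprh (-0.53, adjusted p = 2.76e-04) and Rev3l (-0.42) fell and none rose.

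**Figure D5:**
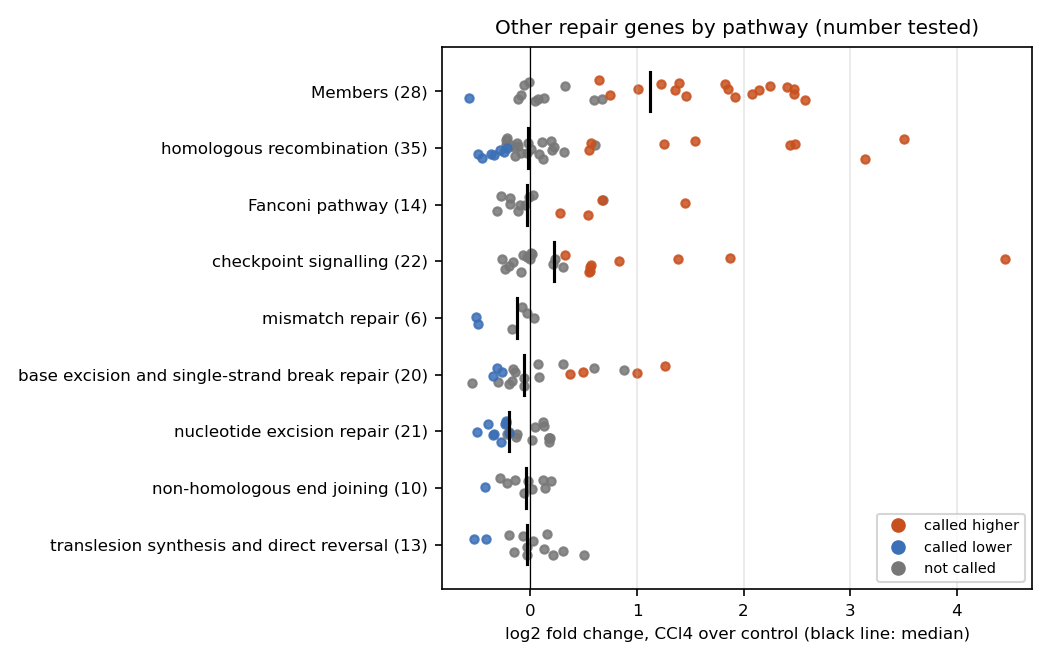
Log2 fold change of CCl4 over control for the members and for 8 lists of other repair genes, 1 point per tested gene, coloured by call, with black lines at the medians. Genes called higher make up 22.9% of the recombination, 28.6% of the Fanconi, 40.9% of the checkpoint and 20% of the base excision list. Among all genes tested 21.2% were called higher. The recombination and base excision lists also hold 7 and 3 genes called lower, and the nucleotide excision list holds 9 lower and 0 higher. All calls are those under TMM scaling, and the number called lower depended on scaling.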

How the data were processed

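RNA of 6 liver libraries was sequenced from 1.3 µg of total RNA each. The authors deposited raw counts for each gene. They aligned filtered reads with HISAT2, per the series' design text, and counted them with featureCounts, per the submitters' processing notes. The sources used here give no version, genome build, annotation, strand setting or treatment of multi-mapped reads. Hence reads of overlapping genes cannot be told apart. Symbols came from GENCODE M21 (52083 of 55359 Ensembl identifiers matched; 443 rows carry other identifiers), as did exon lengths and overlaps. Of 299 listed genes, 298 matched.

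The test on counts was run in edgeR 4.0.16 under R 4.3.3 (filterByExpr, TMM, glmQLFit and glmQLFTest with robust estimation, adjusted p threshold 0.05). SE was derived from the fold change and its F statistic. Depth was 18929972 to 20042731 counts per library. The test models counting error and further spread between libraries, and no molecular identifiers are mentioned. Replicates were checked pairwise (correlation of log2 CPM 0.985 to 0.993, chi-square per gene 5.71 to 25.8) and none was a copy of another. On simulated counts for this comparison the test found 87.5% of 104 genes with a log2 change of 1 and 100% of 91 with a log2 change of 2, and it called 12 of 14882 genes left unchanged. The changed genes were drawn above a floor of expected counts, and a common dispersion (a coefficient of variation of 10.63%) was used for all genes. These rates therefore do not describe the scarce members or those that varied more between libraries. Permutation tests used scipy 1.17.1. Alternatives were other scalings and filters, DESeq2 1.42.0, limma-voom (limma 3.58.1), a minimum fold change of 1.5, a replicate block, a ratio pseudocount of 1, and leaving out each library.

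The members and all lists were chosen with earlier results of these data known. The text names all members, the largest called rise and fall of each other list, the partner genes, Mki67, Pcna, Mcm5 and Top2a; any further gene was picked with its values in view. Some results, 2 of the 17 partner ratios among them, are not reported here. Marker lists covered hepatocytes, macrophages and monocytes, T, B and NK cells, stellate cells and fibroblasts, endothelial cells, cholangiocytes, erythroid cells and neutrophils.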

Additional observations from a re-analysis of the deposited data

How the results depend on the processing

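Across 15 alternatives, 11 of the 17 genes called higher kept their call wherever they were tested: Brca1, Bard1, Rad51ap1, Rad54b, Exo1, Fanca, Fancd2, Fanci, Chek1, Neil3 and Polq. Of these, Bard1, Rad51ap1, Exo1, Fancd2, Fanci, Chek1, Neil3 and Polq passed the main filter only through the CCl4 libraries. Their calls were in part fixed by that selection. Bard1, Exo1 and Fanci were not tested under the stricter filter. Of 417 values of single members under the alternatives, 379 kept their direction and side of the threshold, 21 lost a call, 5 gained one and 12 changed sign, all 12 in genes without a call. At a minimum fold change of 1.5, 11 members were called higher and 0 lower, other repair genes gave 10 and 0, and 1689 genes were called in all, against 6427; this test asks for a larger change by construction. Other repair genes called higher numbered 40 with library size alone. Those called lower numbered 12 under upper quartile scaling, 7 with library size alone and 15 in DESeq2. With library size alone the median over all genes shifted to 0.147 (log2), and the split of calls went from 3303 higher and 3124 lower to 4824 and 1676; upper quartile scaling gave 4103 and 2177. Leaving out each library in turn gave 13 to 20 members higher, 1 lower in every case, 21 to 30 other repair genes higher and 15 to 21 lower. The 13 came without CCl4 replicate 2 (as did the 15) and the 20 without CCl4 replicate 3. The causes were not tested.

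Sign changes were those of Brca2 without control replicate 1 (-0.052) or CCl4 replicate 1 (-0.0091), Brip1 without CCl4 replicate 2 (-0.020), and Xrcc1 without control replicate 3 (0.031) or CCl4 replicate 2 (0.024). Over all libraries left out, Brca2 ran from -0.052 to 0.14, Brip1 from -0.020 to 0.36 and Xrcc1 from -0.066 to 0.031. Under upper quartile scaling and with library size alone they were those of Xrcc3 (0.0014 and 0.062), Atr (0.022 and 0.084) and Xrcc1 (0.073 and 0.13), and with library size alone that of Msh6 (0.027). With the replicate number as a block, 17 members were called higher and 1 lower, 25 other repair genes higher and 22 lower, and 6416 genes in all. Same-numbered libraries correlated at 0.048, 0.004 and 0.063 in their deviations from the group means, and control replicate 2 correlated better with CCl4 replicate 1, so the numbers were not taken to pair the libraries. Of 119 partner ratio differences under other settings, 0 moved by more than the larger SD of the groups. Leaving out a library cannot shift a group mean by that much, so the outcome was fixed in advance for those settings. Only the pseudocount of 1 could have moved a difference. Several members had under 10 counts per control library, which limits the precision of their fold changes.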

Other observations

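Rad51b, a homologous recombination gene that is no member, stood apart from the recombination genes described above. It stood at 0.373, 0.702 and 0.636 CPM in controls and at 5.14, 6.03 and 8.40 in CCl4 livers, a log2 fold change of 3.50 (edgeR's quasi-likelihood test, adjusted p = 2.36e-05, SE 0.28), and CCl4 replicate 3 held its highest value. Mcm10, a replication initiation factor, went the other way from most replication fork genes. Its level of 64.5, 54.2 and 76.7 CPM in controls and 29.3, 36.7 and 26.6 in CCl4 livers gave a log2 fold change of -1.08 (adjusted p = 0.00267, SE 0.17). Mbd4, a glycosylase of mismatched thymine, rose from 2.07 ± 0.243 to 4.14 ± 0.197 CPM (log2 fold change 1.00, adjusted p = 0.00119) with CCl4 replicate 3, at 4.32 CPM, the highest of its group. Rad51b and Mcm10 are named by the rule for the lists, and Mbd4 was picked after its values were seen.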
